A study of Drosophila melanogaster with 2 samples.

Results

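The 9 genes of the RNA m6A methylation machinery (fl(2)d, Mettl3, Mettl14, vir, nito, flacc, Hakai, Ythdc1 and Ythdf) were examined for binding of CG17802 at their promoters, out of 18277 annotated genes of Drosophila melanogaster, of which 13968 are protein-coding. CG17802, also called Nnk, belongs to the ZAD zinc finger proteins. ChIP-seq, in which DNA bound to a protein is recovered with an antibody and sequenced, was done on whole embryos of mixed sex, 0 to 14 h old. All embryos came from 1 transgenic line that stably expresses CG17802 with GFP at its C terminus. There was 1 group of 2 biological replicates and no second condition, so nothing was compared between treatments. The antibody and assay fields of the labels describe ChIP of CG17802, although a free-text field speaks of an input control. The genes were chosen by function, but with their peaks in these lists known (fl(2)d is among the strongest peaks of the series), so their peak ranks are a description and carry no test. The annotation spells flacc as Flacc, and that spelling is used from here on.

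In m6A, the most common internal modification of messenger RNA, a methyl group sits on an adenosine. Mettl3 is the catalytic subunit of the enzyme and Mettl14 its partner. A larger complex of fl(2)d (WTAP in mammals), vir (VIRMA), nito (RBM15), Flacc (ZC3H13) and the ubiquitin ligase Hakai holds the enzyme to its targets. The mark is read by proteins with a YTH domain, of which Ythdc1 acts in the nucleus and Ythdf in the cytoplasm. In the fly the nuclear pathway supports the female-specific splicing of Sxl, the master gene of sex determination, and fl(2)d and vir were found through that role.

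The promoters below show the member with a thresholded peak whose summit, from both replicates pooled, lay on a known promoter element. Beside it are 3 members with no listed summit within 500 bp of a start. Each runs 5′ to 3′ on the gene's own strand, from at most 250 bases before the annotated start to 30 bases after it (RefSeq Release 6 sequence, the dm6 build). Windows of genes with a close upstream neighbour stop after at most 30 bases of that neighbour's transcript. Capitals mark the DRE, TATCGATA, the site of the factor DREF, and the shorter CGATA, the core recognised by BEAF-32, which also lies within every DRE. The windows are chr3L:3374141-3374311 on the minus strand for Ythdc1, chr3R:25039220-25039403 on the minus strand for Ythdf, chr2L:8308177-8308456 on the plus strand for Mettl14 and chrX:18893607-18893886 on the minus strand for Flacc.
Ythdc1: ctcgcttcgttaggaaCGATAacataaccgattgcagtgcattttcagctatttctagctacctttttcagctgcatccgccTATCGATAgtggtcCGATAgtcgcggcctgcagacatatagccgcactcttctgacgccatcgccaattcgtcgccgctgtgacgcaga
Ythdf: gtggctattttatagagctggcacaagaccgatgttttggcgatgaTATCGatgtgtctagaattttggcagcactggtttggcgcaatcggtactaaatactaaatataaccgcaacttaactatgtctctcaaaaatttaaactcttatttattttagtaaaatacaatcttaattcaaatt
Mettl14: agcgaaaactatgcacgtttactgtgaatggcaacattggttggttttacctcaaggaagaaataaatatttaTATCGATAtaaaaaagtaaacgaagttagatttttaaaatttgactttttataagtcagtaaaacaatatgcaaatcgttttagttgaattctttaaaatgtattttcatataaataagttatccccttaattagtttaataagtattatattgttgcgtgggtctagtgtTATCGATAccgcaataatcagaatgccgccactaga
Flacc: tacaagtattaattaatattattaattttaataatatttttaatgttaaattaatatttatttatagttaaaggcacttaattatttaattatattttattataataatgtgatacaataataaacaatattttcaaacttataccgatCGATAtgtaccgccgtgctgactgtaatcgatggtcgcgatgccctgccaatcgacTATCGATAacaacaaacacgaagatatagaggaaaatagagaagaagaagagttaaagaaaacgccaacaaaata

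Thresholded summits lay within 500 bp of a transcription start of 3 of the 9 genes, namely fl(2)d and vir of the writer complex and Ythdc1 of the readers. That is 33.3% of the genes, against 16.8% of all protein-coding genes (2352 of 13968). With fl(2)d left out, a setting added after seeing the data, it is 2 of 8 (25%). In the pooled list of 30000 peaks, most of them background, 6 of the 9 genes had a summit, against 46.9% of protein-coding genes. The list of replicate 1 had 5 of the 9, against 45.1%, and that of replicate 2 had 5 of the 9, against 47.2%. Mettl14, Flacc and Ythdf had no summit within 500 bp of a start in any of the 4 lists. Since nearly every second gene has a summit in the pooled list, an entry there was not counted as binding. Read depth was not given, so the precision of a single peak is unknown.

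**Figure D1:**
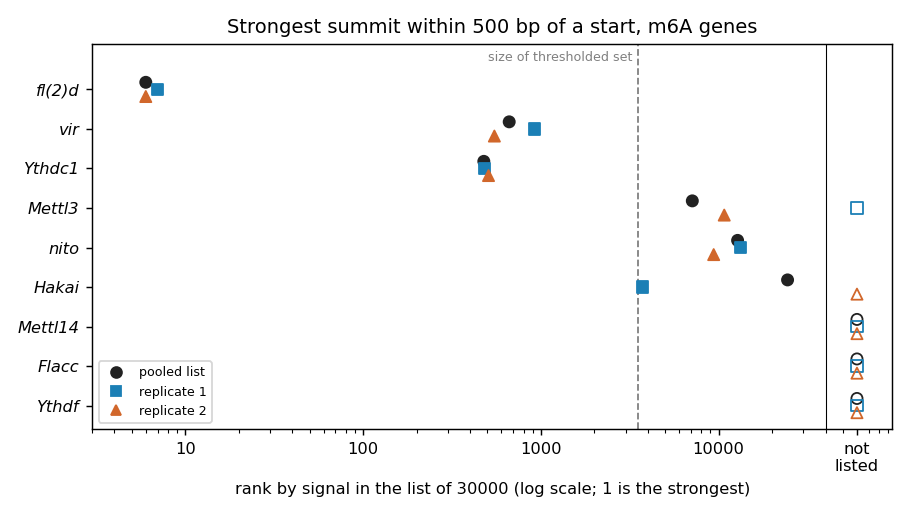
Rank by signal (horizontal, log scale, 1 is the strongest) of the strongest summit within 500 bp of a start of each m6A gene (vertical), in the pooled list (circles), replicate 1 (squares) and replicate 2 (triangles); open symbols at the right mean that no summit was listed. fl(2)d sits at rank 6 or 7 in every list, Ythdc1 between 478 and 508 and vir between 548 and 922, while Mettl3, nito and Hakai lie past 3535, the size of the thresholded set.

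The peak at fl(2)d (FBgn0000662), the WTAP subunit that links the enzyme to the rest of the complex, was the 6th strongest of all 3535 thresholded peaks. The gene lies at 2R:13819624-13824553 on the minus strand. Its peak (2R:13824375-13825101) had a signal of 14438 in the pooled list, 3952 in replicate 1 and 10546 in replicate 2, at ranks 6, 7 and 6. Signals are the authors' own values with no stated scale, so they describe and rank peaks within a list and are not fold enrichments. Both replicates placed this peak among their strongest. The pooled signal was 68.2 times the median of the 1917 thresholded promoter peaks (211.6). It ranked 6 of the 1917 promoter peaks, also 6 of the 1707 outside chromosome 4 and the centromere-proximal segments. Of those 1707, 320 were on the same arm, and the fl(2)d peak was the strongest of them. The peak was 727 bp wide, and 2.71% of promoter peaks were at least as wide. Its summit lay 91 bp upstream of the fl(2)d start, 87 bp in replicate 1 and 101 bp in replicate 2.

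The fl(2)d promoter is shared. CG13339 starts 305 bp away on the other strand and is transcribed in the opposite direction, and the summit lay between both starts, 214 bp upstream of CG13339. The fl(2)d start was the closer one in all lists. The promoter peaks just above it were at lncRNA:CR43130 with aqz (signal 17833) and at WASp (14618), and those just below at Rheb with CG2931 (14187) and at lncRNA:CR44209 with Cyt-b5 and Drat (12937). None of the 7 motifs searched, listed further on, lay within 100 bp of the fl(2)d summit. Within the 300 bp promoter window the only match was a CGATA at position -219 from the start.

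The vir promoter, of the scaffold protein Virilizer (FBgn0003977, 2R:23360192-23366355, minus strand), held 2 thresholded peaks that cover nearly the same interval. The first (2R:23366583-23366901) had its summit 236 bp upstream of vir with a signal of 377, rank 664. The second (2R:23366585-23366901) had its summit 442 bp upstream with a signal of 333, rank 800. These signals were 1.78 and 1.57 times the median promoter peak. Replicate 1 listed 1 summit, 479 bp upstream of vir, with a signal of 85.2 at rank 922. Replicate 2 listed 1 summit at 323 bp, with a signal of 327 at rank 548, and a weaker one at 525 bp, just outside the 500 bp limit, with a signal of 43.3 at rank 8853. The strongest summits of the replicates were thus 156 bp apart, a distance that 4.52% of 1882 promoter peaks matched in both replicates reach or exceed.

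Which gene the vir peaks belong to is not settled by position. Ice1, a component of the complex that promotes transcription of small nuclear RNA genes, starts 511 bp from vir in the opposite direction. Only the first pooled summit was closer to vir (236 against 275 bp from Ice1). The second lay 69 bp from Ice1, the replicate 1 summit 32 bp and the stronger replicate 2 summit 188 bp. A DRE began 57 bp from the second summit on the Ice1 side, with a further CGATA 79 bp from it on that side. A TATA box match, TATAAA, began 26 bp from the second summit on the vir side. Around the first summit the only match within 100 bp was of the GAGA motif. Within that distance 10.3% of thresholded promoter summits had a DRE, 42.0% a CGATA, 18.8% the GAGA motif and 33.9% the TATA box. The promoter peaks next in rank to the first were at CG5805 (377.0) and Set1 (376.3), and those next to the second at Oatp30B (333.5) and mrt (333.1).

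Ythdc1, the nuclear reader (FBgn0027616, 3L:3370451-3374170, minus strand), was the third bound gene. Its peak (3L:3374114-3374310) had a signal of 481 in the pooled list at rank 478, 139 in replicate 1 at rank 480 and 342 in replicate 2 at rank 508. The rank was nearly the same in both replicates, and their summits were 8 bp apart, closer than the median of 20 bp for promoter peaks. The pooled signal was 2.28 times the median promoter peak and placed Ythdc1 at 365 of 1917. The interval was 197 bp wide, and 82.9% of promoter peaks were at least as wide. The most common width in the thresholded set was 330 bp, held by 64.0% of its peaks.

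The pooled Ythdc1 summit fell inside the DRE printed above, which begins at position -59 of Ythdc1 and 2 bp before the summit. A further CGATA follows at -45 and another precedes it at -125. An E-box, CAGCTG, begins at -73, 16 bp before the summit, and is not capitalised above. Of the 1917 thresholded promoter summits, 10.3% had a DRE within 100 bp, 42.0% a CGATA and 11.8% an E-box. CG12010 starts 112 bp from Ythdc1 in the opposite direction, and the pooled summit lay midway, 57 bp from Ythdc1 and 55 bp from CG12010. The summit of replicate 1 was closer to Ythdc1 (50 against 62 bp) and lay just outside the DRE. That of replicate 2 lay inside the DRE, 58 bp from Ythdc1 and 54 bp from CG12010. The nearest gene thus changed with the list, and the peak cannot be assigned to either gene. The closest promoter peaks in rank were at par-1 (482.0) and at CG18428 with eIF4EHP (481.6) above it, and at Ptp4E (481.0) and gus (480.4) below it.

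**Figure D2:**
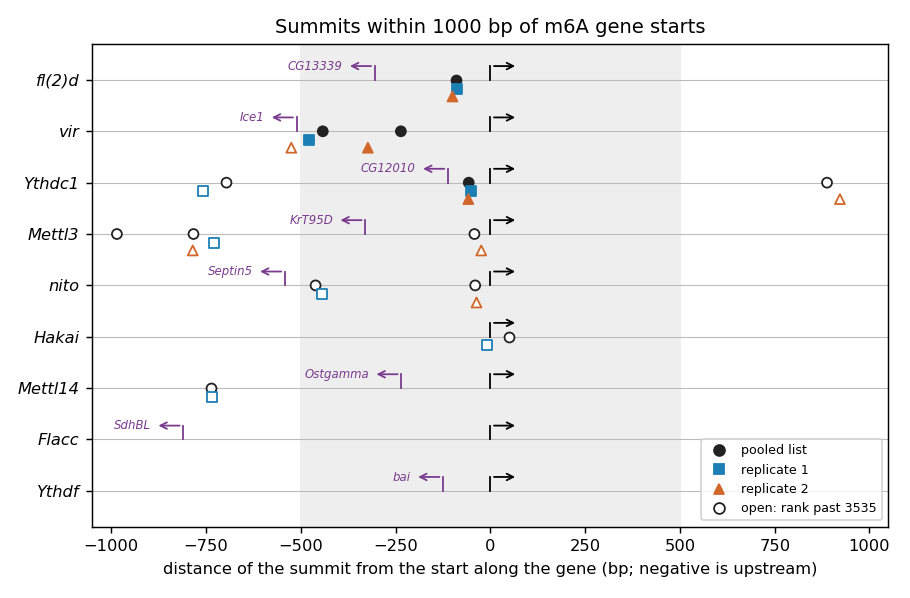
Positions of listed summits (horizontal, bp along the gene, negative is upstream) around the start of each m6A gene (black arrow; for Ythdf the most upstream of its 3 starts), with the start of the head-to-head neighbour in purple and the 500 bp limit in grey. Filled symbols rank within the first 3535 of their list. The filled summits of fl(2)d, vir and Ythdc1 lie between both starts, and those of vir are spread from 236 to 479 bp.

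The catalytic pair had no thresholded peak. Mettl3 (FBgn0039139, 3R:24032157-24034257, plus strand) had a pooled summit 42 bp upstream of its start with a signal of 66.4, rank 7113, below the lowest thresholded signal of 109.8. Replicate 2 listed it at 24 bp upstream (signal 39.2, rank 10755) and replicate 1 did not list it within 500 bp. The nearest summit of replicate 1 was 728 bp upstream (signal 25.1), beyond the start of the neighbouring KrT95D. For Mettl14 (FBgn0032016, 2L:8308427-8309961, plus strand) the closest listed summits were 736 bp upstream in the pooled list (signal 36.7, rank 25059) and 735 bp in replicate 1 (22.1, rank 10135), with none in replicate 2. The nearest thresholded summits were 5601 bp from the Mettl3 start, closest to Miro, and 2858 bp from the Mettl14 start, closest to CG7810.

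Of the other complex members, nito and Hakai had listed promoter summits but no thresholded one, and Flacc had none in any list. nito (FBgn0027548, 2R:7962463-7969805, plus strand), an RNA-binding protein of the Spen family, had pooled summits 40 bp upstream (signal 49.2, rank 12787) and 461 bp upstream (41.3, rank 19080). Replicate 1 listed a summit only on the far side, at 444 bp (20.1, rank 13223), and replicate 2 only next to nito, at 39 bp (42.0, rank 9381). The replicates thus named different sides of the gap between nito and Septin5, which start 542 bp apart. Hakai (FBgn0032812, 2L:19580612-19582474, minus strand) had its summit 8 bp upstream in replicate 1 (32.9, rank 3750) and no summit in replicate 2. Its pooled summit was 49 bp inside the gene with a signal of 37.1 at rank 24423. Rank 3750 lies just past 3535, the size of the thresholded set, and only replicate 1 shows it. The nearest thresholded summits were 2659 bp from nito (closest to CG2915), 1640 bp from Hakai (closest to CG10366) and 27547 bp from Flacc.

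The cytoplasmic reader Ythdf (FBgn0039261, 3R:25033876-25039249, minus strand) differed from Ythdc1 in having no summit within 1000 bp of any of its 3 starts in any list. Its nearest thresholded summit was 13645 bp away and closest to EMC6. Flacc (FBgn0030974, X:18888978-18893636, minus strand) also had none within 1000 bp. No thresholded summit lay inside the body of any of the 9 genes, so all thresholded peaks of the group were upstream of a start.

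**Figure D3:**
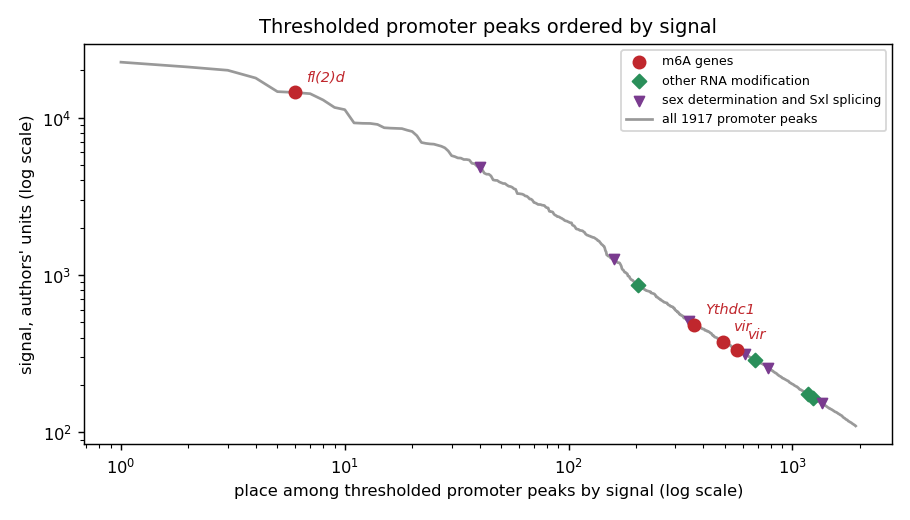
Signal in the authors' units (vertical, log scale) of the 1917 thresholded promoter peaks against their place in order of signal (horizontal, log scale), with the peaks of m6A genes in red and those of other RNA modification genes and of sex determination and Sxl splicing genes (2 context lists described further on) in green and purple. fl(2)d stands at place 6 with 14438, and Ythdc1 and the 2 vir peaks lie between 333 and 481, above the median of 211.6.

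The arrangement of the genes was also described. It is not independent of a choice made with the peaks known, since binding goes with arrangement (shares below). Of the 9 genes, 8 start head to head with another protein-coding gene within 1000 bp (from the most upstream start of the gene to the nearest start of its neighbour), all but Hakai, against 35.2% of protein-coding genes (4914 of 13968). The gaps between starts were 112 bp for Ythdc1, 125 bp for Ythdf (with bai, a p24 cargo receptor), 235 bp for Mettl14 (with Ostgamma, an oligosaccharyltransferase subunit), 305 bp for fl(2)d, 330 bp for Mettl3, 511 bp for vir, 542 bp for nito and 810 bp for Flacc (with SdhBL). Head-to-head genes had thresholded summits more often in general, at 29.5% (1448 of 4914) against 9.98% of genes without such a neighbour (904 of 9054). The 3 bound of 8 head-to-head members are to be read against that 29.5%. The 4 thresholded member peaks, of which those at vir overlap, lay at 3 promoters, and each had a second gene within 500 bp. With gaps of 112, 305 and 511 bp this largely follows from the arrangement and is no separate result. Of all thresholded promoter peaks, 39.8% had a second gene within that distance. Ythdf and Mettl14, which had no thresholded summit, have gaps between those of Ythdc1 and fl(2)d. Of all protein-coding genes with a head-to-head neighbour within 500 bp, 32.1% had a thresholded summit (1183 of 3687). Whether the gap matters was not tested.

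The promoters of all members were searched on both strands for 7 motifs in a window from 250 bases before to 50 bases after each start. They were the DRE, the BEAF-32 core, Motif 1, Ohler motif 7, the E-box, the site of the GAGA factor and the TATA box, each spelled out where its matches are given. A match describes letters in the window and shows no binding. The DRE was in 3 of the 9 genes (Mettl14, Flacc and Ythdc1), against 9.36% of 13968 protein-coding promoters. It was found at positions -177 and -6 of Mettl14 and -45 of Flacc, as the capitals in the printed windows show, and neither gene had a listed summit there. Of promoters with a DRE 28.5% had a thresholded summit, against 15.6% of those without. The shares were similar for Ohler motif 7 (29.9 and 15.9%) and Motif 1 (26.4 and 16.0%), and reversed for the GAGA site (15.1 and 17.6%). Among head-to-head genes the shares with and without a DRE were 34.6 and 28.5%, and among the other genes 19.3 and 9.43%. Most promoters with a DRE thus had no thresholded summit, as at Mettl14 and Flacc.

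CGATA was in 7 of 9 members, all but Mettl3 and Hakai, against 47.3% of promoters. nito had the most, with 5 matches and no thresholded peak, whereas fl(2)d had 1. Motif 1, GGTCACAC, which is bound by M1BP, was found only in Mettl3, at position -28, against 7.69% of promoters. Ohler motif 7, CATCNCTA, was found only in vir, against 6.41%. The E-box, CAGCTG, was in Hakai and Ythdc1 (17.6% of promoters).

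The letters GAGAG were in vir and Ythdf (29.7%), and the TATA box, searched as TATAAA, in Mettl3, Mettl14, nito, Flacc and Ythdf (45.8%). Of the 7 motifs, the 3 bound members had only the BEAF-32 core in common. That core was also in Mettl14, nito, Flacc and Ythdf, which had no thresholded peak, and in 56.0% of all promoters with a thresholded summit.

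Of the 22 other RNA modification genes 4 had thresholded summits, or 18.2%, a share near the 16.8% of all protein-coding genes. They were RluA-1, of the pseudouridine synthase family (signal 858, rank 240), Nsun5, an RNA cytosine methyltransferase (290, rank 995), Mettl5 (175, rank 1940) and Trmt112 (166, rank 2080). In human cells METTL5 and TRMT112 act as a pair that places m6A on 18S ribosomal RNA. Their fly promoters both had a summit in both replicates, at ranks 1776 and 2037 for Mettl5 and 1562 and 3191 for Trmt112. The Trmt112 summit was closer to Ilk (27 against 35 bp), and the peaks of Mettl5 and Nsun5 were also shared, with CG42374 and Max and with CG42359. Fmr1, an RNA-binding protein reported to read m6A in the fly, had a pooled summit 11 bp upstream of a start (98.4, rank 4109) that did not reach the thresholded set.

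Sex determination and Sxl splicing genes had thresholded summits at 6 of 24, or 25%, against 16.8%. Spf45, a splicing factor that acts with Sxl, had the strongest (4817, rank 42), and it lies in a centromere-proximal segment. da, a bHLH activator of Sxl, followed (1258, rank 179), then gro, a co-repressor (510, rank 446), and U2af50, the large subunit of U2AF (313, rank 881), whose summit was closer to PIG-Q (48 against 187 bp). msl-2, the dosage compensation gene that Sxl represses, had a signal of 258 at rank 1164 and shares the peak with ND-PDSW. Sxl itself had a summit 376 bp inside the gene from its nearest start (153, rank 2322), with 74.5 in replicate 1 at rank 1123 and 86.1 in replicate 2 at rank 3349. The downstream genes tra, dsx and fru had no thresholded summit, and their pooled-list summits had signals of 51.3, 69.1 and 86.9.

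**Figure D4:**
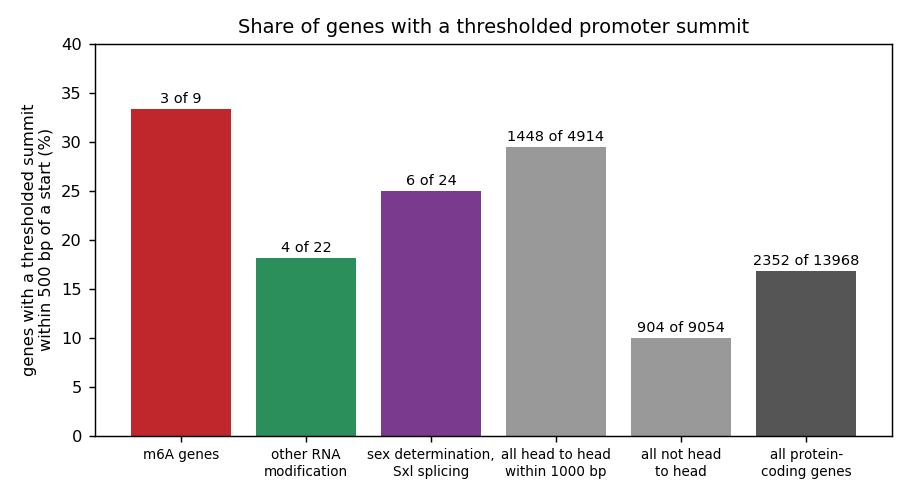
Share of genes (vertical, %) with a thresholded summit within 500 bp of a start, for the 9 m6A genes, both context lists, genes with and without a head-to-head neighbour, and all protein-coding genes; counts stand above the bars. The m6A bar rests on 3 genes and lies near the bar of head-to-head genes.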

How the data were processed

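Binding was measured by ChIP-seq in 2 libraries of 1 group, mapped to replicates 1 and 2 from the labels. The authors deposited 4 peak lists on dm6, per the labels and the descriptive text files: 1 per replicate, 1 from both replicates pooled, and 1 thresholded for reproducibility. The first 3 also hold background. The sources used here do not give the aligner, the caller or the threshold. A peak's signal is the value the authors deposited, with no stated scale, and was used to describe and rank peaks within a list. The −log10 q-value column, as deposited, was used for 1 alternative ranking. The deposited p-value column was empty. Other deposited values (the offset column) were added to the start to place each summit, 1-based. Offsets outside their interval (1 peak in replicate 1 and 4 in replicate 2) were replaced by the midpoint.

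Genes and starts came from Ensembl release 115 (18277 genes on the main chromosomes without transposable elements, 13968 of them protein-coding), with 5 of 55 listed symbols matched through RefSeq synonyms. Segments next to the centromere began past 22 Mb on 2L, 23 Mb on 3L and 22.5 Mb on X, and ended before 6 Mb on 2R and 4.5 Mb on 3R. Sequence came from the RefSeq Release 6 genome. Python 3.11.15 and pandas 2.3.3 were used, and summit assignment was tested on simulated data. The members and both context lists were chosen with earlier results of these data known, so no test is given. Named were all members, the genes that share their promoters, neighbours in rank, and the context genes with a thresholded summit. Other context genes were named after their values were seen.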

Additional observations from a re-analysis of the deposited data

How the results depend on the processing

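The m6A count kept within 1.5 times its value of 3 in all 10 alternatives, from 2 to 3. The loss of 1 gene cannot break that limit. The count was 2 at a promoter distance of 200 bp (vir lost, against 12.3% of protein-coding genes), with the nearest gene only (Ythdc1 lost, against 12.3%) and with the 500 strongest peaks (vir lost, against 3.26%). Leaving out fl(2)d, itself a bound gene, gave 2 by construction (against 16.8%). The count was 3 with the 3535 strongest peaks of either replicate alone, against 16.4% for replicate 1 and 16.8% for replicate 2. The pooled-list count was 5 at 200 bp, against 33.3% of protein-coding genes, and 7 at 1000 bp, against 57.8%. With the full list of 30000 peaks of either replicate alone it was 5, against 45.1% for replicate 1 and 47.2% for replicate 2. The other RNA modification genes fell to 2 of 22 (9.09%, against 9.65% of protein-coding genes) with the 1767 strongest peaks and 1 (4.55%, against 3.26%) with the 500 strongest peaks, from 4 of 22 in the full set. The sex determination genes fell to 3 of 24 (12.5%, against 3.26%) with the 500 strongest, from 6 of 24. Fewer peaks were counted in these settings. The rank of fl(2)d was 7 in replicate 1 and 6 in replicate 2, and 1152 by q-value, where 2303 peaks tie at the highest value. Ranking by p-value was not run, since that column is empty. No paired analysis was possible because there is 1 group. Depth was not given, and with 2 replicates of 1 line the ranks show agreement between these libraries only.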

Other observations

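For some genes of the context lists the strongest promoter summit ranked far higher in 1 replicate than in the other. For others a promoter summit was listed in 1 replicate only. Unr, a partner of Sxl in the repression of msl-2, ranked 2331 in replicate 2 (signal 113.0, 22 bp upstream of a start) and had no promoter summit in replicate 1 or the pooled list. Psi, a splicing regulator, ranked 2790 in replicate 1 (39.1, 461 bp inside the gene) and was not listed in replicate 2. Fmr1 ranked 2977 in replicate 2 and 21785 in replicate 1. wuho, a subunit of a tRNA methyltransferase, ranked 2743 in replicate 1 and 9978 in replicate 2. The better rank of each of these 4 genes fell within the first 3535 of its list, and none of the 4 had a thresholded summit. That number is the size of the thresholded set and not a limit for the replicate lists, which also hold background.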
